A study of Arabidopsis thaliana with 14 samples.

Results

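IRT3 and 9 other genes of the ZIP family of metal transporters were followed in rosettes of Arabidopsis thaliana. The 10 genes were taken by their locus identifiers from the 33602 genes counted in each of 14 RNA-seq libraries. IRT3 (AT1G60960) was included because its level in the WRKY75 lines was far below that of Col-0, so that difference is described without a test. The other genes were listed by family: ZIP1 (AT3G12750), ZIP2 (AT5G59520), ZIP3 (AT2G32270), ZIP4 (AT1G10970), ZIP5 (AT1G05300), ZIP6 (AT2G30080), ZIP7 (AT2G04032), ZIP9 (AT4G33020) and ZIP11 (AT1G55910). Of the 10, 8 passed the low-count filter, and ZIP2 and ZIP9 did not.

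ZIP proteins (for ZRT- and IRT-like) span a membrane and carry zinc, iron, manganese or copper into the cytosol. In Arabidopsis the family is best known for metal uptake in roots, where IRT1 is the main route for iron, and several ZIP genes are induced when zinc is short. That induction is driven by the transcription factors bZIP19 and bZIP23, which bind a palindromic zinc deficiency response element in the promoters of their targets. In leaves, ZIP proteins serve the distribution of metals between tissues and between organelles and the cytosol.

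All plants were 3 weeks old and had grown with 12 h of light per day, at 22 °C in the day and 19 °C at night. Col-0 is the wild type. It was sprayed either with water (n = 3) or with 50 µM estradiol (n = 3), each with 0.001% of the wetting agent Silwet-L77. N2102362 (n = 4) and N2102363 (n = 4) are independent lines in which estradiol induces overexpression of WRKY75, a WRKY transcription factor that binds the W-box, and both were sprayed with estradiol. Whole rosettes were harvested after 3 h in pools of 5 plants. Water-sprayed plants of the lines were not analysed here, so any level of IRT3 that the lines had before the spray, and any effect of the transgene insertion, cannot be told apart from the effect of induction. In whole rosettes, fewer cells of a type and less RNA per cell cannot be told apart.

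The libraries held 20456036 to 22605970 counted reads, so 1 count was worth 0.0440 to 0.0528 CPM (read counts scaled to a common library size, with TMM factors). WRKY75 was at 0.428 to 2.69 CPM in the 6 Col-0 libraries, at 28.2 to 82.1 CPM in N2102362 and at 76.8 to 167 CPM in N2102363. Replicate 4 of both lines carried a date in its deposited name that no other library had, and it stood apart: edgeR called 939 of 19666 genes tested (4.77%) between replicate 4 and replicates 1 to 3 of the lines, 429 higher and 510 lower. With libraries scaled by their totals alone, that split became 230 higher and 955 lower, as the median of all genes moved to -0.12 on the log2 scale. With 1 library left out the number of calls ran from 64 (0.326%) to 1524 (7.76%). It was 298 without replicate 1 and 1473 without replicate 2 of Col-0 with water, 241, 235 and 144 without replicates 1, 2 and 3 of N2102362, and 134, 64 and 1524 without replicates 1, 2 and 3 of N2102363. Values that replicate 4 moves are given with and without it. The deposited names of all 8 line tables, and of no Col-0 table, also carry the word combined, so any effect of that step cannot be told apart from genotype. All 4 rosette markers were detected in every group, with summed levels of 15111 to 26207 CPM in Col-0 and 18283 to 37635 CPM in the lines, highest in replicate 4 of each line. Of 5 root markers, EXP7 was at 0 in all libraries, and the summed level was 21.5 to 40.0 CPM in Col-0 and, overlapping it, 32.5 to 68.6 CPM in the lines. The p-values measure the spread between these libraries. Those of the replicate 4 comparison rest on the spread within the other groups alone, as each line had 1 replicate 4 library.

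IRT3 lies on the minus strand of chromosome 1 (TAIR10, chr1:22445310-22447214) and ZIP4, its nearest relative among the 10, on the same strand (chr1:3665087-3667139). Their coding sequences were 71.4% identical, against 62.0% for IRT3 and ZIP9 and 45.1% for IRT3 and ZIP11. Among the 10 ZIP genes, only the windows of IRT3 and ZIP4 held the core of the zinc deficiency response element. For that reason the windows before their starts are shown. The core, TGTCGACA, is a palindrome that reads alike on both strands. Both windows hold 300 bases read 5′ to 3′ from the RefSeq genome (TAIR10.1, whose chromosomes match the coordinates in the count tables), and end 1 base before the gene start that lies farther upstream in RefSeq or the count tables. Capitals mark the TGTCGACA core.
IRT3, chr1:22447300-22447599, minus strand: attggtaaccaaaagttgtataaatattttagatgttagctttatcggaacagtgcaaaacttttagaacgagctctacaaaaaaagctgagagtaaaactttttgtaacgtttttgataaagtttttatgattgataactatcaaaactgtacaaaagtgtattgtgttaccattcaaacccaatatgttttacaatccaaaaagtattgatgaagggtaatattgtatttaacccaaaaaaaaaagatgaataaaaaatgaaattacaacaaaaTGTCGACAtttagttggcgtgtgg
ZIP4, chr1:3667140-3667439, minus strand: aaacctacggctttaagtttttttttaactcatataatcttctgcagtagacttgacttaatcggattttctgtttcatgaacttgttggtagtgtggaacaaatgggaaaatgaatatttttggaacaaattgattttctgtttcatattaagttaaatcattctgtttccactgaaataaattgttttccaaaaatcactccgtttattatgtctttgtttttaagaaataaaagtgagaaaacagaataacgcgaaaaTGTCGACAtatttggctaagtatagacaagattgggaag
For IRT3 that start is the one in RefSeq, 85 bases upstream of the one in the count tables, whereas for ZIP4 both sources give the same start. Counted from the start used, each gene also had a further core shortly after it, which for IRT3 lies before the start given in the count tables.
IRT3, after the RefSeq start, chr1:22447218-22447225: cctcacgaTGTCGACAttacttgt
ZIP4, after the start, chr1:3667043-3667050: ccatagaaTGTCGACActc

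In IRT3 the cores lay 24 to 17 bases before the RefSeq start and 75 to 82 bases after it. In ZIP4 they lay 39 to 32 bases before and 90 to 97 bases after. Over windows from 300 bases before to 100 bases after the start, 127 of 33322 genes (0.381%) held this core, against 2 of the 10 ZIP genes. The W-box, searched as TTGACC or TTGACT on both strands, stood in 38.7% of these windows and in 7 of the 10 ZIP genes. No W-box was found in the windows of IRT3, ZIP6 and ZIP7. For ZIP9, ZIP11, ZIP3, ZIP6 and ZIP2 the start used lay 495, 220, 153, 140 and 110 bases upstream of that in the count tables. The windows of these genes end before their start in the count tables, and sequence beyond the windows was not searched. A match describes letters in the window and shows no binding.

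IRT3, a transporter that carries zinc and iron when expressed in yeast, was among the more abundant ZIP mRNAs of Col-0 rosettes and was far lower in both lines. Its level was 18.1, 11.2 and 18.9 CPM in the Col-0 libraries sprayed with water and 12.9, 18.0 and 8.32 CPM in those sprayed with estradiol. In N2102362 it was 0.777, 0.361, 0.234 and 1.13 CPM, and in N2102363 1.06, 0.399, 0.677 and 1.40 CPM. Every line library was below every Col-0 library, by a wide gap: 5 to 28 counts per line library against 169 to 402 per Col-0 library. Of all genes tested, 5.34% in N2102362, 11.2% in N2102363 and 2.42% over both lines had libraries that did not overlap those of Col-0 with estradiol. The means were 16.0 ± 4.24 CPM (SD, n = 3) with water, 13.1 ± 4.85 (n = 3) with estradiol, 0.626 ± 0.409 (n = 4) in N2102362 and 0.884 ± 0.439 (n = 4) in N2102363.

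Relative to estradiol-sprayed Col-0, the fitted log2 fold change of IRT3 was -4.40 ± 0.46 (SE) in N2102362, or 21.1 times lower (95% interval 10.6 to 41.7). It was -3.89 ± 0.44 in N2102363, or 14.8 times lower (7.70 to 28.5). Both lines are set against the same 3 Col-0 libraries. IRT3 was chosen from these comparisons, so the choice may enlarge both values, and their intervals are a description and no test. Without replicate 4 of both lines, the log2 fold changes were -4.83 and -4.19. For the difference between the lines, N2102363 against N2102362 gave 0.51 ± 0.51 (edgeR adjusted p = 1.000, 95% interval -0.58 to 1.60). WRKY75 stood at 127 ± 39.3 CPM in N2102363 and 42.7 ± 26.3 CPM in N2102362 (SD, n = 4 each). In that comparison edgeR called 1 gene (0.00508%, higher in N2102363) and none of the 8 ZIP genes, DESeq2 called no ZIP gene either, and 0 ZIP genes against 2.34% of all genes were under an unadjusted p of 0.05. The part of the root marker sum in the IRT3 result was not tested.

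The genes on either side of IRT3 were not called. FED A (AT1G60950), a ferredoxin gene of the opposite strand whose end lies 87 bases from that of IRT3, was at 600 to 993 CPM in Col-0 and at 716 to 1491 CPM in the lines. Its log2 fold change in the mean of both lines was 0.22 ± 0.24 (SE, edgeR adjusted p = 0.728). AT1G60970, 633 bases beyond the other end, stayed at or below 0.403 CPM in all 14 libraries and was too low to test. The counting was not stated to use strand, and the library kit does not mark it, but the IRT3 and FED A gene bodies do not overlap.

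**Figure D1:**
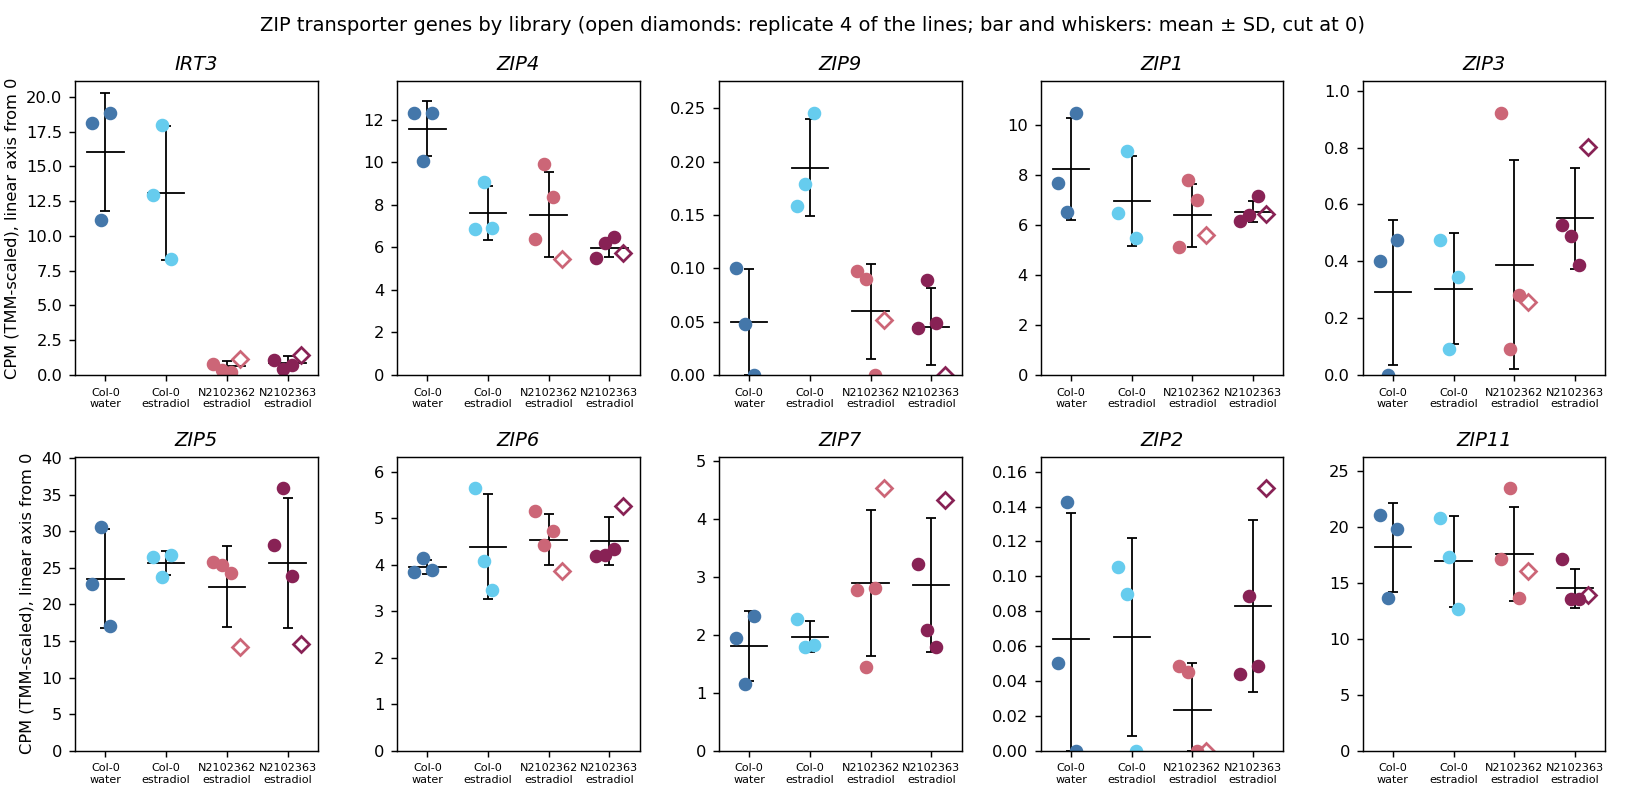
Level of each of the 10 ZIP genes in every library, in CPM on a linear axis that starts at 0 and differs between panels. Points are libraries, open diamonds are replicate 4 of the lines, and bars with whiskers give the mean ± SD of each group (n = 3, 3, 4 and 4). IRT3 falls from 8.32 to 18.9 CPM in Col-0 to 0.234 to 1.40 CPM in the lines, while for each other gene the pooled range of the 8 line libraries overlaps at least one Col-0 group.

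The question that low IRT3 raises is whether another ZIP gene was higher in the same rosettes. None was called. With both lines averaged and set against estradiol-sprayed Col-0, edgeR called 7 of 19666 genes (0.0356%), 3 higher (0.0153%) and 4 lower (0.0203%). IRT3 was chosen from these comparisons, so no call is read for it here or in either line. For the other 7 tested genes the log2 fold changes ran from -0.18 to 0.63, and their adjusted p-values from 0.566 to 0.915. None of the 7 was under an unadjusted p of 0.05 in edgeR, where 9.33% of all genes were, and DESeq2 also called 0 of them. The median over these 7 genes was -0.08, the value of ZIP11, against -0.0041 over all genes. In N2102362 edgeR called 6 genes (0.0305%), 3 in each direction (0.0153% each), and 4.65% of genes were under an unadjusted p of 0.05. In N2102363 it called 5 genes (0.0254%), 3 higher (0.0153%) and 2 lower (0.0102%). None of the other 7 ZIP genes was called by edgeR or DESeq2, or was under an unadjusted p of 0.05, in either line.

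ZIP4 is a zinc transporter gene of the zinc deficiency response and the closest relative of IRT3 here. Its level was 6.86, 9.10 and 6.89 CPM in estradiol-sprayed Col-0, 6.41, 9.93, 8.37 and 5.45 CPM in N2102362, and 5.50, 6.21, 6.48 and 5.72 CPM in N2102363. N2102362 overlapped Col-0, whereas all 4 libraries of N2102363 were below the 3 of Col-0, a separation that 11.2% of all genes tested showed in that comparison. The log2 fold change was -0.01 ± 0.19 (SE, edgeR adjusted p = 0.991) in N2102362 and -0.35 ± 0.19 (adjusted p = 0.475) in N2102363. In the mean of both lines it was -0.18 ± 0.16, with a 95% interval of -0.54 to 0.17, so a rise above 0.17 lay outside that interval. IRT3 and ZIP4 transcripts matched at 80.4% over 693 bases, and the sources used here do not say how multiply matching reads were treated.

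ZIP1 and ZIP3 restore zinc uptake in yeast, and both are zinc-responsive in roots. ZIP1 was at 5.47 to 8.96 CPM in estradiol-sprayed Col-0, 5.10 to 7.81 CPM in N2102362 and 6.17 to 7.15 CPM in N2102363. Its log2 fold change in the mean of both lines was -0.11 ± 0.18 (SE, 95% interval -0.50 to 0.28, edgeR adjusted p = 0.813). ZIP1 overlaps AT3G12740 on the other strand by 125 bases, and reads there cannot be assigned by strand. ZIP3 was near the detection limit, with 0 to 19 counts per library, and its estimate of 0.63 ± 0.72 had an interval of -0.92 to 2.18 (adjusted p = 0.733). A change of ZIP3 by a factor of several was therefore not detectable at this depth.

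ZIP5, a close relative of ZIP3 with 72.3% identical coding bases, was one of the most abundant members. It was at 26.5, 23.8 and 26.8 CPM in estradiol-sprayed Col-0, 25.8, 25.4, 24.3 and 14.2 CPM in N2102362 and 28.2, 35.9, 23.9 and 14.5 CPM in N2102363. In each line 1 library, replicate 4, was far below the rest. The log2 fold change in the mean of both lines was -0.10 ± 0.25 (SE, edgeR adjusted p = 0.884), and 0.08 without replicate 4 of both lines (adjusted p = 0.948).

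ZIP6 and ZIP11 are members whose transport role in the plant is less well defined. ZIP6 was the steadiest gene, at 3.45 to 5.65 CPM over all 14 libraries, with a log2 fold change of 0.04 ± 0.15 (SE, 95% interval -0.28 to 0.37, edgeR adjusted p = 0.915). ZIP11 was at 12.7 to 20.7 CPM in estradiol-sprayed Col-0, 13.7 to 23.4 CPM in N2102362 and 13.5 to 17.1 CPM in N2102363. Its log2 fold change was -0.08 ± 0.18 (95% interval -0.48 to 0.32, adjusted p = 0.871).

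ZIP7, which can carry zinc, iron and manganese in yeast, had the highest mean in the lines relative to Col-0 among the well-counted members. It was at 2.27, 1.79 and 1.82 CPM in estradiol-sprayed Col-0, 2.77, 1.44, 2.81 and 4.52 CPM in N2102362 and 3.21, 2.09, 1.79 and 4.31 CPM in N2102363. The groups overlapped, and the highest library of each line was replicate 4. The log2 fold change in the mean of both lines was 0.55 ± 0.35 (SE, 95% interval -0.20 to 1.29, edgeR adjusted p = 0.566), and 0.26 without replicate 4 of both lines (adjusted p = 0.886). ZIP7 shares 89.7% identity over 445 bases with AT2G03900, which had 0 counts in all libraries.

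ZIP2 and ZIP9 were below the low-count filter and were not tested in the main fit. ZIP2 had 0 to 3 counts per library. ZIP9, a zinc deficiency gene related to IRT3 and ZIP4, had 3, 4 and 5 counts in Col-0 with estradiol, 0 to 2 counts with water, and 0 to 2 counts in the libraries of each line. The Col-0 estradiol libraries stood above all others, by 1 to 5 counts, which is at the limit of the count floor of 3 per library. Of all genes tested, 4.56% had no overlap between Col-0 with estradiol and with water. Between both lines and Col-0 with estradiol 2.42% had none.

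**Figure D2:**
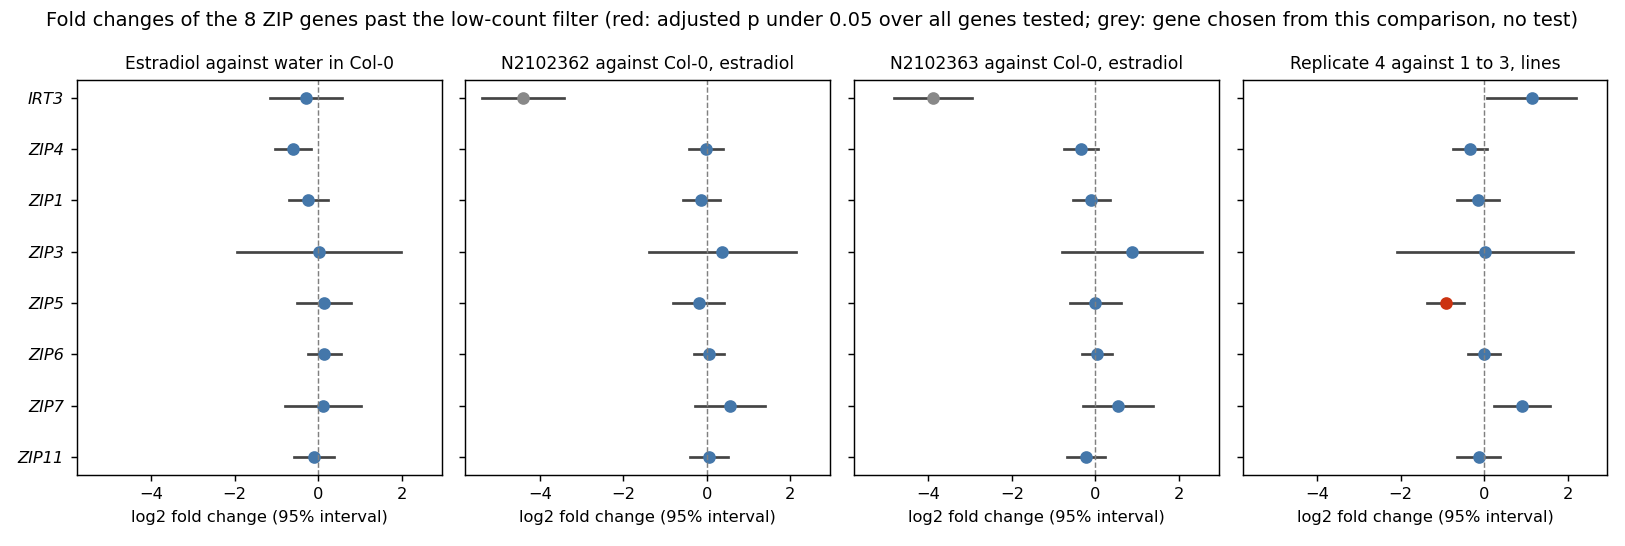
Log2 fold changes (points) with 95% intervals (lines) of the 8 ZIP genes past the low-count filter, in 4 comparisons, 1 per panel. IRT3 stands at -4.40 and -3.89 in the lines and is grey there because it was chosen from those comparisons, and ZIP5, at -0.92 in replicate 4, is the 1 red point (adjusted p under 0.05).

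Spraying Col-0 with estradiol in place of water changed no ZIP gene past the threshold, and no gene at all (0 of 19666 called, 0.0%). At an unadjusted p under 0.05 there were 310 genes (1.58%), ZIP4 among them, and DESeq2 called none. ZIP4 was at 12.3, 10.1 and 12.3 CPM with water, above all 3 estradiol libraries, and its log2 fold change was -0.60 ± 0.20 (SE, 95% interval -1.03 to -0.18). The unadjusted p was 0.00918, the edgeR adjusted p 1.000, and 4.56% of all genes tested had groups that did not overlap in this comparison. IRT3 changed by -0.29 ± 0.40 (adjusted p = 1.000), with overlapping libraries. Against Col-0 with water as the reference, ZIP4 in the mean of both lines was at -0.79 (adjusted p = 0.0672), so the value for ZIP4 in the lines depends on which Col-0 group it is set against.

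Per kilobase of exon, which allows levels to be compared between genes, ZIP11 and ZIP5 led in every group. In Col-0 with estradiol the order was ZIP11 at 11.9 ± 2.86 CPM per kb (SD, n = 3), ZIP5 at 11.8 ± 0.764, IRT3 at 6.83 ± 2.53, ZIP1 at 4.94 ± 1.27, ZIP4 at 4.62 ± 0.778, ZIP6 at 3.44 ± 0.888 and ZIP7 at 1.40 ± 0.191, with ZIP3, ZIP9 and ZIP2 at or below 0.196. Among neighbours in that order, the libraries of ZIP11 and ZIP5, of IRT3 and ZIP1, of ZIP1 and ZIP4 and of ZIP4 and ZIP6 overlapped in range, while those of ZIP5 and IRT3, ZIP6 and ZIP7, and ZIP7 and ZIP3 did not. In the lines IRT3 moved from rank 3 to rank 7, at 0.327 ± 0.214 CPM per kb in N2102362 and 0.462 ± 0.229 in N2102363 (SD, n = 4 each), below ZIP7 in all libraries of both lines.

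The mean summed level of the 10 genes was lower in both lines than in either Col-0 group, and less so when IRT3 was left out. It was 49.5 ± 4.44 CPM per kb in Col-0 with water and 45.3 ± 6.33 with estradiol (SD, n = 3 each), 38.0 ± 5.15 in N2102362 and 36.7 ± 3.29 in N2102363 (n = 4 each). Without IRT3 the sums were 41.1 ± 2.31, 38.5 ± 4.35, 37.7 ± 5.30 and 36.3 ± 3.43 CPM per kb. The share of IRT3 in the sum was 11.4% to 19.2% over the Col-0 estradiol libraries, but 0.331% to 2.22% over those of the lines. The mean sum of the other 9 genes was no higher in either line than in Col-0, and the ranges overlapped, at 33.7 to 42.1 CPM per kb in Col-0 with estradiol, 31.5 to 44.4 in N2102362 and 32.3 to 39.5 in N2102363. Mean ZIP7 stood at 1.40 CPM per kb in Col-0 with estradiol and at 2.06 and 2.03 in the lines, against 6.83, 0.327 and 0.462 for IRT3. No test was made of the sums, since the members were chosen with results known.

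**Figure D3:**
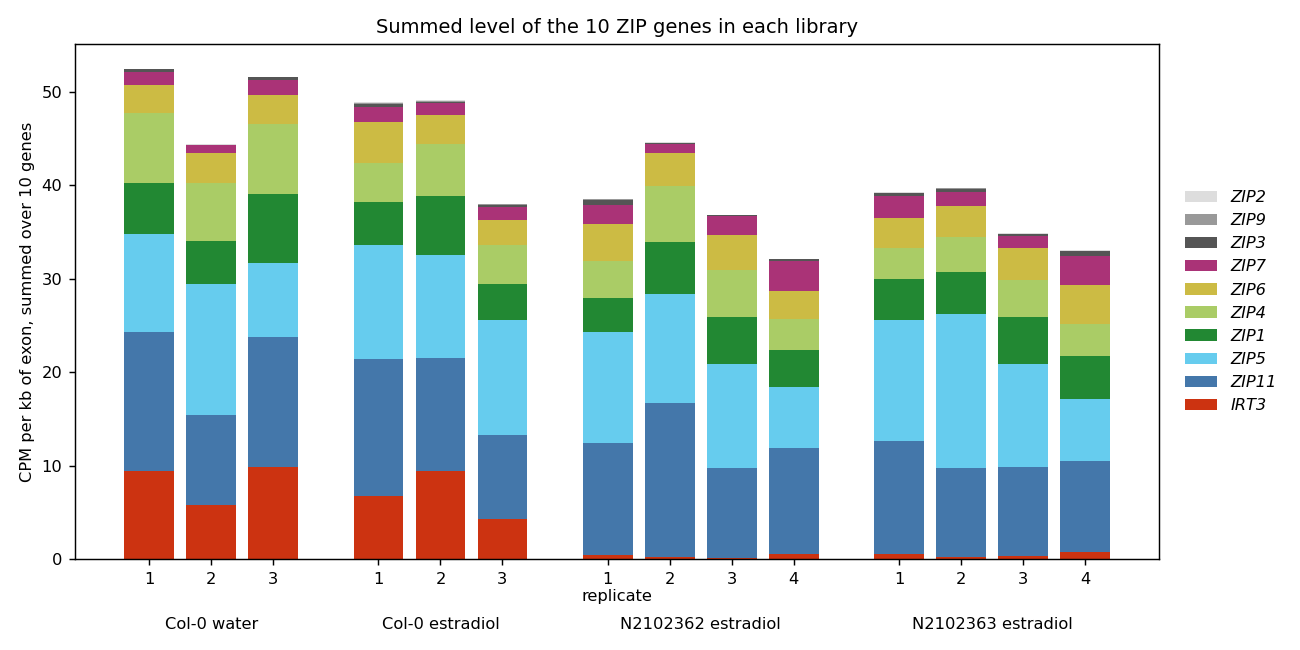
Summed level of the 10 ZIP genes in each library, in CPM per kb of exon, stacked by gene from 0 (IRT3 in red at the base). Columns are single libraries, grouped by genotype and spray. The red segment makes up 11.4% to 19.2% of the column in Col-0 with estradiol and at most 2.22% in the lines, and the rest of the column overlaps between groups.

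Replicate 4 of the lines was set against replicates 1 to 3 in a second fit, with replicate 4 of each line as a group of its own. Such a group holds 1 library, so the p-values here do not measure the spread between replicate 4 libraries. ZIP5 fell in replicate 4, the 1 member called lower, against 2.59% of all genes tested called lower. Its 14.2 and 14.5 CPM lay below the 23.9 to 35.9 CPM of the other 6 line libraries, and its log2 fold change was -0.92 ± 0.20 (SE, edgeR adjusted p = 0.0364). That call was lost in 6 of the 12 settings that left out 1 library, those without replicate 1 of Col-0 with water, without replicates 1, 2 and 3 of N2102362 and without replicates 1 and 2 of N2102363, at adjusted p-values of 0.0555 to 0.0760. ZIP7 gave 0.91 ± 0.30 (adjusted p = 0.0931) and IRT3 1.14 ± 0.49 (adjusted p = 0.172), and their replicate 4 libraries were also outside the range of the others, as were those of 33.6% of all genes tested. IRT3 in replicate 4, at 1.13 and 1.40 CPM, stayed below the lowest Col-0 library at 8.32 CPM. The rosette marker sum was highest in these 2 libraries, and its part in the ZIP5 and ZIP7 values was not tested.

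The rest of the ZIP family gave little signal or little difference. IRT1, the root iron transporter, IRT2, ZIP8 and ZIP10 had 0 counts in all 14 libraries, which allows at most 3 counts each, or 0.132 to 0.158 CPM per library. ZIP12 had 1 count in 1 Col-0 library. The more distant members were well expressed: AT3G08650 at 68.0 to 124 CPM, IAR1 at 23.1 to 33.1 CPM and ZTP29 at 17.5 to 26.0 CPM. None of these 3 was called in the lines, at log2 fold changes of -0.29 ± 0.13 (SE, edgeR adjusted p = 0.528) for AT3G08650, -0.15 ± 0.10 (adjusted p = 0.578) for IAR1 and 0.23 ± 0.09 (adjusted p = 0.528) for ZTP29 in the mean of both lines. ZTP29 alone was under an unadjusted p of 0.05, at 0.0305.

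Genes that handle the same metals were counted next, from lists for zinc, iron and copper. For both lines averaged, 0 of 22 zinc genes, 0 of 18 iron genes and 0 of 15 copper genes tested were called by edgeR, and DESeq2 called none, in a comparison that called 0.0356% of all genes. Under an unadjusted p of 0.05 there were 1, 2 and 0, against 9.33% of all genes. Their median log2 fold changes were -0.06, -0.02 and -0.09, against -0.0041 over all genes tested. ZIF1, a vacuolar transporter for zinc tolerance, was at -0.55 ± 0.17 (SE, unadjusted p = 0.00788, edgeR adjusted p = 0.520). PCR1 was at 0.62 ± 0.67 and NAS1, a nicotianamine synthase, at -0.38 ± 0.38. Without replicate 4 of both lines these 3 values were -0.57, 0.93 and -0.54, at adjusted p-values of 0.816, 0.816 and 0.830.

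Among the iron genes, FRU (also known as FIT), a regulator of iron uptake in roots, was at 0.62 ± 0.28 (SE, edgeR adjusted p = 0.528), and the ferric reductases FRO7 and FRO6 were at 0.41 ± 0.28 and 0.32 ± 0.17. FRU itself was low, at 0.844 to 2.38 CPM in all libraries. N2102362, at 1.36 to 1.85 CPM, lay above the 0.844 to 1.25 CPM of Col-0 with estradiol, a separation that 5.34% of all genes tested showed in that comparison. It overlapped the 1.42 to 2.15 CPM of Col-0 with water, and N2102363 overlapped both Col-0 groups. Among the copper genes, the superoxide dismutase CSD1 was at -0.38 ± 0.21, the copper ATPase HMA5 at -0.27 ± 0.19 and the plastocyanin PETE1 at 0.23 ± 0.22. Without replicate 4 of both lines, FRU was at 0.68, FRO7 at 0.23, FRO6 at 0.22, CSD1 at -0.23, HMA5 at -0.22 and PETE1 at 0.04, none of them called. In the spray and line-against-line comparisons edgeR and DESeq2 also called 0 genes of these 3 lists, while 1 copper gene in the first and 2 zinc genes in the second were under an unadjusted p of 0.05.

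In replicate 4 of the lines, 5 metal genes passed the test. PCR2, a zinc efflux protein, fell by 1.25 ± 0.26 (SE) on the log2 scale (edgeR adjusted p = 0.0336), CSD1 fell by 0.77 ± 0.17 (adjusted p = 0.0358) and FRO3, a mitochondrial ferric reductase, fell by 0.34 ± 0.08 (adjusted p = 0.0401). YSL2, a transporter of metal-nicotianamine complexes, rose by 1.06 ± 0.16 (adjusted p = 0.0144) and PIC1, an iron permease of the chloroplast envelope, rose by 0.52 ± 0.13 (adjusted p = 0.0465). They came from 22 zinc, 18 iron and 15 copper genes tested, in a comparison where edgeR called 4.77% of all genes. DESeq2 called 6, 2 and 5 genes of these lists, in a fit that called 2253 of 19081 genes. With 1 library left out in 12 ways, YSL2 kept its call in 12, PCR2 in 9, CSD1 in 7, FRO3 in 6 and PIC1 in 4. Their highest adjusted p-values over those settings were 0.0392, 0.0760, 0.0749, 0.0835 and 0.0950 in that order. All 4 that lost a call did so without replicate 3 of N2102362 and without replicates 1 and 2 of N2102363. CSD1, FRO3 and PIC1 also lost theirs without replicate 1 of Col-0 with water and without replicate 2 of N2102362, FRO3 and PIC1 without replicate 1 of N2102362, and PIC1 without replicates 1 and 3 of Col-0 with estradiol.

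The genes whose pattern over the 14 libraries came nearest to that of IRT3 were not ZIP genes. Nearness was the root mean square difference of centred log2 CPM, whose median over 19665 other genes was 2.19. AT4G07868 was nearest at 1.18, with 0 to 25 counts in Col-0 and 0 to 1 in the lines. AT2G01008 followed at 1.34, with 5.37 to 15.3 CPM in Col-0 and 0.903 to 4.60 CPM in the lines. AT3G41979, an rRNA gene, was at 1.54. Of the ZIP genes ZIP4 came nearest, at 1.99, in place 481, and ZIP3 was the farthest at 2.53. A likeness over 4 groups of shared libraries is a description and was not tested.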

How the data were processed

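Per the submitters' processing notes, reads from unstranded TruSeq libraries went through FastQC, TopHat2, SAMtools and HTSeq against TAIR10. In the sources used here, tool versions and the treatment of multiply matching reads are not given. The authors deposited raw read counts per gene, 1 table per sample, with 33602 genes. Replicate numbers came from the titles. The protocol text speaks of biological replicates of pooled rosettes, and counts of no pair within a group agreed within sampling noise (chi-square of at least 12.1 per degree of freedom).

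A single model over the 14 libraries was fitted with edgeR 4.0.16 (R 4.3.3), TMM scaling, filterByExpr (minimum count 10, smallest group 3) and the robust quasi-likelihood F test. It kept 19666 genes and removed 13936, and had 10 residual degrees of freedom. Adjusted p-values are Benjamini-Hochberg values over all genes tested, with a threshold of 0.05. In a second fit replicate 4 of each line was a group of its own, and these groups added nothing to its estimate of spread. The code was tested on simulated data. Alternatives were DESeq2 1.42.0, other scalings, no filter, the compared groups alone, a replicate block, other Col-0 references and each library left out.

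Gene levels per kb used RefSeq exon lengths. Promoters and coding sequences came from RefSeq (TAIR10.1), compared with BLASTN 2.17.0 and Biopython 1.88. No genome coordinates were converted. Gene lists, the rule for named genes and the 10 members were chosen with earlier results of these data known. Named were all members, genes of the metal lists that passed the test in a comparison or had the 3 largest changes in the mean of both lines, the neighbours of IRT3 and the 3 genes nearest to it. Deviations of same-numbered replicates correlated at 0.063 to 0.522 for the spray and 0.106 to 0.166 for N2102363 against Col-0 with estradiol. Between the lines they correlated at 0.224 to 0.731, and for N2102362 against Col-0 with estradiol at -0.132 to 0.638. The pairing was not uniform, and the block was kept as an alternative. Intervals and count floors cover counting error and the spread between these libraries only.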

Additional observations from a re-analysis of the deposited data

Results flagged for a closer look

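In 20 groups of 4 libraries (the 10 ZIP genes in each line), 3 had a library far from the others by Dixon's test at its 95% level, and chance alone marks about 1 in 20 groups. ZIP5 in N2102362 had its lowest value in replicate 4, at 14.2 CPM against 24.3 to 25.8 CPM in the other 3 libraries. ZIP6 in N2102363 had its highest value in replicate 4, at 5.27 CPM against 4.18 to 4.35 CPM. ZIP11 in N2102363 had its highest value in replicate 1, at 17.1 CPM against 13.5 to 13.9 CPM. ZIP5 in replicate 4 of N2102363, at 14.5 CPM, was low as well, while ZIP6 in replicate 4 of N2102362, at 3.86 CPM, was the lowest of its group.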

How the results depend on the processing

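Over 1022 recomputed log2 fold changes of the 8 tested ZIP genes, 8 lost a call and none changed direction after being called. Of the 8, 6 were ZIP5 in replicate 4. The other 2 were IRT3 with only the compared groups in the fit, where the number of ZIP genes called was 0 in place of 1 in N2102362 and in N2102363. IRT3 was chosen from these comparisons, so nothing is read from its calls. Its log2 fold change was -4.39 and -3.89 under that setting. It ran from -4.83 to -3.59 over 69 recomputed values, from 23 settings for each line and for their mean. None of 161 recomputed values of the other 7 genes in the mean of both lines was called, the lowest adjusted p being 0.0672, for ZIP4 against Col-0 with water. Leaving out 1 library at a time gave 0 to 1 ZIP genes called in replicate 4 (ZIP5), and the cause was not tested. A replicate block changed no call of a ZIP gene: IRT3 was at -4.79 in N2102362, -4.26 in N2102363 and -4.52 in the mean of both lines. The block could not be fitted for replicate 4 against replicates 1 to 3, and leaving out a replicate 4 library was not run there. DESeq2 called 9 of 26183 genes in N2102362, 37 of 20597 in N2102363 and 27 of 24660 in the mean of both lines. In replicate 4 it called 2253 of 19081. With 3 or 4 libraries per group, the counts of ZIP2, ZIP3 and ZIP9 were low, so differences in them may have been missed. A rise in better-counted members may have been missed too. In the mean of both lines the 95% interval of the log2 fold change reached 1.29 for ZIP7 and 0.43 for ZIP5.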
